A study of Mus musculus with 16 samples.

Results

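The 10 genes described here encode enzymes that break down leucine, isoleucine and valine, the branched-chain amino acids, and were taken by symbol (Bcat2, Bckdha, Bckdhb, Dbt, Bckdk, Ivd, Mccc1, Acadsb, Hibch and Hibadh). All 10 were found among the 14023 genes of the deposited FPKM table (fragments counted per length of transcript and per size of library). Values came from bulk white fat of mice with wild-type PPARg (WT) or with both copies carrying PPARg-K107R, a change of a SUMO-accepting lysine to arginine. Both genotypes ate chow for 10 weeks and then a diet with 60% of its calories as fat for 19 weeks. In the last step, rosiglitazone (10 mg/kg), which activates PPARg, or 1% methylcellulose alone was given by gavage over 1 week. Epididymal (eWAT) and inguinal (iWAT) fat of each genotype and treatment make 8 groups of 2 libraries, numbered 1 and 2. The vehicle groups carry the diet and the gavage too, and the K107R change is present in every tissue of the mouse as far as the labels say. Nothing in the labels says that the 2 libraries of a group are separate mice, and the spread behind each p-value may therefore be technical.

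Breakdown begins in mitochondria, where the transaminase BCAT2 passes the amino group of each of the amino acids to a keto acid acceptor. The branched-chain keto acid dehydrogenase complex (BCKDH) then removes a carboxyl group, the committed step, and the kinase BCKDK phosphorylates and inhibits the complex. After that the routes part: IVD and the carboxylase that holds MCCC1 act on leucine, ACADSB on isoleucine, and HIBCH and HIBADH on valine. In fat cells the products feed acetyl-CoA, propionyl-CoA and the synthesis of lipid, and expression of the pathway is known to rise as fat cells mature and with PPARg agonists.

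The libraries numbered 2 stood apart from those numbered 1. Summed FPKM ran from 411746 to 596519, and 76.7% of the 13669 genes tested were lower in number 2, by a median over all tested genes of -0.309 on the log2 scale. The rosiglitazone-treated eWAT pair of K107R was the exception, with median FPKM of 8.95 and 8.83. Macrophage markers (6 genes) summed to between 3464 and 4689 FPKM in eWAT and between 896 and 1367 in iWAT, and mesothelial markers (3 genes) to at least 30.2 in eWAT and at most 2.84 in iWAT. Epididymis markers (5 genes) summed to 3302 and 3165 FPKM in vehicle-treated eWAT of K107R and to at most 5.15 in every other library. Their part in the results below was not tested.

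The promoters of 9 of the 10 genes were found in the RefSeq table for GRCm38.p6, and the entry for Dbt was not matched. The promoters of 4 genes are shown as the 250 bases upstream of a RefSeq start, on the gene's own strand, because in them this window also lies outside the GENCODE M21 gene; Mccc1 meets this too and is not shown. Bcat2 and Bckdhb stand for members with higher values under rosiglitazone in every same-numbered pair of libraries, and Bckdk and Acadsb for members without that pattern. Capitals mark a CCAAT box, a GC box (GGGCGG) or AGGTCA, the core site that PPARg and other nuclear receptors bind, on either strand.
Bcat2 (chr7:45569903-45570152, plus strand): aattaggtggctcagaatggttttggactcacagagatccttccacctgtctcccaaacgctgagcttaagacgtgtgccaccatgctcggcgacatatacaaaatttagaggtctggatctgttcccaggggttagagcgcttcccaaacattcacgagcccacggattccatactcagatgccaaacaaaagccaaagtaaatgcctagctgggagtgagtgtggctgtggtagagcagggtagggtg
Bckdhb (chr9:83924887-83925136, plus strand): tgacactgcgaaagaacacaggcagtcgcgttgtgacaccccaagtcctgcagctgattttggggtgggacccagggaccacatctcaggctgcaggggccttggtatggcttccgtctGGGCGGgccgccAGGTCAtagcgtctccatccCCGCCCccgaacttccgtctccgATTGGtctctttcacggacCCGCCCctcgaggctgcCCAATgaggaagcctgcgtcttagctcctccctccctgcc
Bckdk (chr7:127903823-127904072, plus strand): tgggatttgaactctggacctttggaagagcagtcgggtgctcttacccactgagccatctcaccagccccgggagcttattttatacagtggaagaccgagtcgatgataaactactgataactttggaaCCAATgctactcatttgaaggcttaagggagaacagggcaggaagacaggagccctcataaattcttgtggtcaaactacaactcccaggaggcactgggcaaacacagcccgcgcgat
Acadsb (chr7:131410351-131410600, plus strand): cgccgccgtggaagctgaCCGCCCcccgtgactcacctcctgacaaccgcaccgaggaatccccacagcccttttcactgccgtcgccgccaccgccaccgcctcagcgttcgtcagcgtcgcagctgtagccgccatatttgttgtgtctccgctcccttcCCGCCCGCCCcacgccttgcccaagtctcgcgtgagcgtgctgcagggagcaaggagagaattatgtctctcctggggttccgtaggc
The Bcat2 window holds none of the 3 motifs, and 50.4% of its bases are G or C. Bckdhb holds all 3, at 63.2% G or C, with AGGTCA once. Among the 9 members, AGGTCA was found in Bckdhb alone, against 14.0% of the 32851 promoter windows in the table. The direct repeat of AGGTCA with 1 base between, on either strand, which is the form read by PPARg with its partner RXR, was in no member's window and in 0.0335% of all. The CCAAT box was in 5 of 9 members (33.8% of all windows) and GGGCGG in 5 of 9 (32.7%). Members were counted as genes with the motif in any of their windows. Bcat2 and Bckdhb each have a further window, which holds none of the 3 motifs. The counts per gene and the shares per window are thus not on the same basis.

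Bcat2 and Bckdha, the first enzyme and the alpha subunit of the complex, were the members called for the drug in limma without the block. Bcat2 (chr7:45570153-45589711, plus strand), the mitochondrial transaminase, stood at 59.5 and 58.9 FPKM in iWAT of vehicle-treated WT and at 85.2 and 88.4 after rosiglitazone. In iWAT of K107R it went from 45.0 and 51.3 to 61.0 and 67.5 FPKM. All 4 treated inguinal libraries thus lay above all 4 vehicle libraries, and the share of all genes that do so is not given here. After a median-ratio rescaling of the libraries this no longer held, with 73.9 in WT vehicle number 2 against 51.9 in treated K107R number 1. Averaged over genotypes, Bcat2 rose in iWAT by 0.48 ± 0.08 (SE) on the log2(FPKM + 1) scale (limma, Benjamini-Hochberg adjusted p = 0.00628). In eWAT the same gene read 49.4 and 49.7 FPKM in WT vehicle and 57.8 and 54.5 with the drug, and 52.0 and 51.0 against 62.8 and 70.9 in K107R. The averaged epididymal difference of 0.27 ± 0.08 missed the threshold (limma adjusted p = 0.107) and passed it with the replicate number as a block (0.0243), but not with block and median-ratio rescaling together (0.16, 0.486).

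Bckdha (chr7:25629946-25658981, minus strand), the alpha subunit of the decarboxylase of BCKDH and the subunit that BCKDK phosphorylates, was the most abundant member in both depots. Its inguinal values were 117.1 and 112.5 FPKM in WT vehicle, 170.3 and 189.8 in WT rosiglitazone, 100.7 and 114.2 in K107R vehicle and 163.2 and 189.5 in K107R rosiglitazone. No treated library overlapped a vehicle library in these values, again without a share of all genes. After rescaling they did overlap, with 160.2 in K107R vehicle number 2 against 138.9 in K107R rosiglitazone number 1. Bckdha rose in iWAT by 0.68 ± 0.09 averaged over genotypes (limma adjusted p = 0.00141). In eWAT it went from 69.8 and 76.7 to 84.4 and 93.7 FPKM in WT and from 76.7 and 75.3 to 114.6 and 106.8 in K107R. The averaged epididymal rise was 0.41 ± 0.09 (limma adjusted p = 0.0234), and of 8 fits that each left out 1 library it passed only in the one without WT rosiglitazone number 1 (adjusted p from 0.0489 to 0.131). The inguinal averages of Bcat2 and Bckdha passed in all 8 such fits, with adjusted p from 0.0102 to 0.0338 and from 0.00369 to 0.0098. After a median-ratio rescaling of the libraries they missed the threshold (0.445 and 0.237), and with the block added to the rescaling they passed (0.0278 and 0.0086). The epididymal average of Bckdha missed it after rescaling without the block (0.986) and with it (0.233). Fitted on 1 depot's libraries alone, no member passed for the drug in any comparison, and with the block added 8 did in iWAT averaged over genotypes, where 19.8% of all genes were called higher. Bckdha shares 1171 exonic bases with B3gnt8 on the opposite strand, a gene at 2.61 to 13.5 FPKM here, and the strand setting of the authors' counting is not given in the sources used here.

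**Figure D1:**
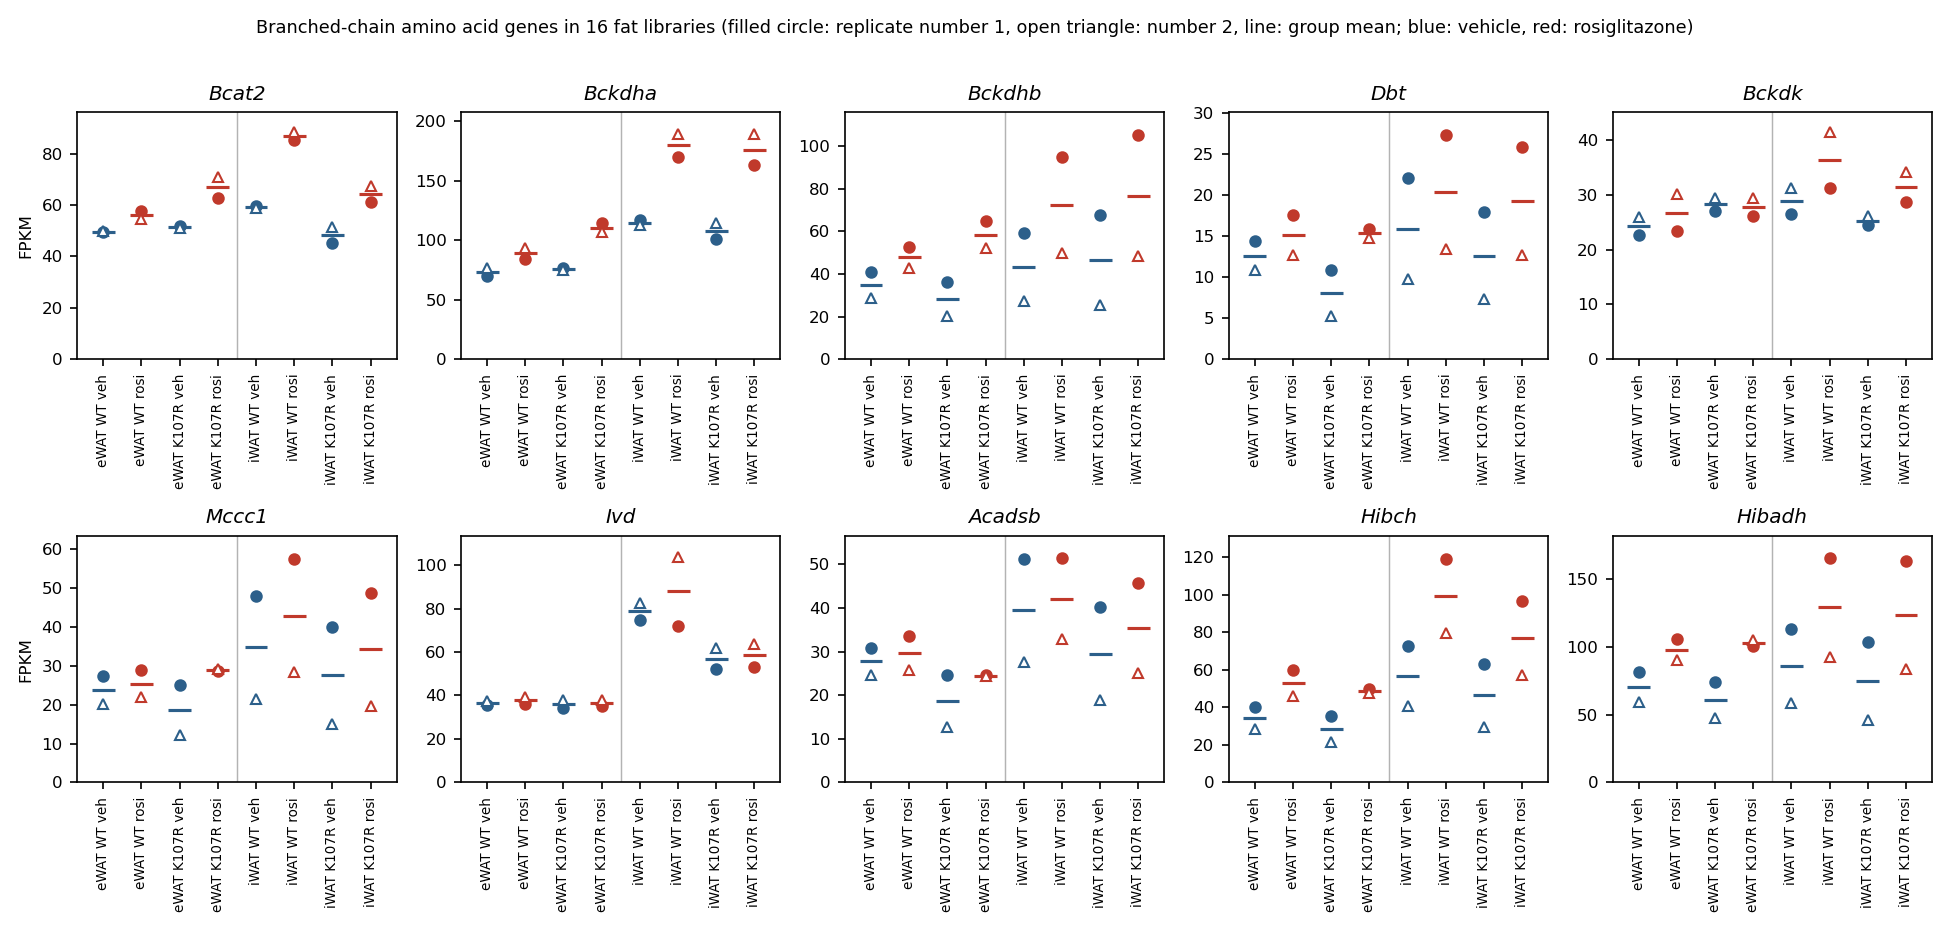
FPKM of the 10 genes in each of 16 libraries (8 groups on the horizontal axis, left of the grey line eWAT, right iWAT; filled circles are replicate number 1, open triangles number 2, lines group means; blue is vehicle, red rosiglitazone). Inguinal Bcat2 and Bckdha separate by treatment, Ivd separates by depot, and in Bckdhb, Dbt, Mccc1, Acadsb, Hibch and Hibadh the circles lie above the triangles in nearly every group.

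The other subunits of the complex showed differences as large, with far wider scatter between replicate numbers. Bckdhb (chr9:83925145-84124240, plus strand), the beta subunit of the decarboxylase, read 58.9 and 27.3 FPKM in iWAT of WT vehicle against 94.9 and 49.6 with rosiglitazone, and 67.6 and 25.2 against 104.9 and 48.4 in K107R. Its epididymal values were 40.9 and 28.8 against 52.7 and 42.8 FPKM in WT, and 36.2 and 20.3 against 64.7 and 52.0 in K107R. Each treated library exceeded the vehicle library of its own number, while the number 1 vehicle libraries of iWAT exceeded the treated libraries of number 2. Averaged differences of 0.76 ± 0.40 in eWAT and 0.76 ± 0.40 in iWAT did not pass limma (adjusted p = 0.608 and 0.469) and passed with the replicate block (0.0203 and 0.016). Dbt (chr3:116513070-116549981, plus strand), the transacylase core of the complex, was the least abundant member at 5.29 to 27.3 FPKM. Its averaged differences were 0.58 ± 0.39 in eWAT and 0.48 ± 0.39 in iWAT (limma adjusted p = 0.843 and 0.792; with the block 0.0669 and 0.103). In K107R eWAT alone Dbt passed with the block (0.92, adjusted p = 0.0443), at 0.52 in number 1 and 1.33 in number 2. The block takes 1 shift between numbers for all groups. Number 2 over number 1 of Dbt was 0.930 in the treated pair there and 0.489 in the vehicle pair.

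The valine enzymes differed from vehicle by about as much as the subunits of the complex. Hibch (chr1:52844929-52920986, plus strand), the hydroxyisobutyryl-CoA hydrolase, read 72.8 and 40.5 FPKM in iWAT of WT vehicle against 119.1 and 79.6 after rosiglitazone, and 63.3 and 29.4 against 96.9 and 57.5 in K107R. In eWAT it read 40.3 and 28.7 against 60.1 and 46.2 FPKM in WT, and 35.6 and 21.7 against 49.7 and 47.5 in K107R. In 3 of the 4 comparisons, all but K107R iWAT, the treated pair lay wholly above the vehicle pair. The share of all genes with such a gap is not given here. The averaged differences were 0.80 ± 0.31 in iWAT and 0.70 ± 0.31 in eWAT (limma adjusted p = 0.234 and 0.411; with the block 0.00368 and 0.00929). After rescaling without the block Hibch passed in both depots (adjusted p = 0.00284 in iWAT and 0.0125 in eWAT). Hibadh (chr6:52546228-52640389, minus strand), the dehydrogenase of the next step, was the second most abundant member at 46.1 to 165.6 FPKM. It differed by 0.67 ± 0.34 in iWAT and 0.63 ± 0.34 in eWAT (limma adjusted p = 0.442 and 0.627), and with the block it passed in iWAT (0.0326) and missed in eWAT (0.052). After rescaling it passed in iWAT (0.0224) and missed in eWAT (0.0709).

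The kinase and the enzymes of leucine and isoleucine showed smaller differences. Bckdk (chr7:127904082-127910221, plus strand) read 26.5 and 31.2 FPKM in iWAT of WT vehicle, 31.2 and 41.6 with rosiglitazone, 24.5 and 26.2 in K107R vehicle and 28.7 and 34.2 in treated K107R. The inguinal difference was 0.31 ± 0.13 (limma adjusted p = 0.305; with the block 0.015; with block and rescaling 0.11). In eWAT, where Bckdk ran from 22.7 to 30.1 FPKM, it was 0.05 ± 0.13. Ivd (chr2:118861954-118882909, plus strand), the isovaleryl-CoA dehydrogenase, differed by 0.03 ± 0.13 in eWAT and 0.09 ± 0.13 in iWAT. Acadsb (chr7:131410601-131448944, plus strand), which oxidises the isoleucine intermediate, differed by 0.27 ± 0.33 and 0.20 ± 0.33. Mccc1 (chr3:35959312-36000678, minus strand), the biotin-bearing subunit of methylcrotonyl-CoA carboxylase, differed by 0.40 ± 0.43 and 0.32 ± 0.43. None of these last 3 passed in either depot, with or without the block. The epididymal values of Bckdk and Ivd turned negative after rescaling (-0.06 and -0.08).

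Read as counts, 2 of 10 members rose in iWAT averaged over genotypes, where 3.11% of all 13669 genes tested were called higher, and 6 of 10 with the replicate block, where 9.30% were. After rescaling 2 members passed in iWAT (3.32% of all genes called higher), Hibch and Hibadh in place of Bcat2 and Bckdha. In eWAT it was Hibch in place of Bckdha (1.63% of all genes). In eWAT it was 1 of 10 against 1.59%, and 4 of 10 with the block against 5.52%. No member fell in either depot. The members' median log2 difference was 0.48 in iWAT, against 0.02 over all genes tested, and 0.40 against 0.10 in eWAT. Bcat2, Bckdha, Bckdhb, Dbt, Mccc1, Hibch and Hibadh were higher with rosiglitazone in all 8 same-numbered pairs, as were 12.7% of all genes tested. The members share these libraries, so their pairs are not independent of each other. These are bulk tissues, in which a change in the share of fat cells and a change in RNA per cell cannot be told apart.

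Within single groups fewer members passed. In WT eWAT, 0 of 10 were called higher (0.168% of all genes), with or without the block (1.02%), and none had an unadjusted p under 0.05, with Bckdha closest at 0.0507. In K107R eWAT, Bckdha alone rose (0.54 ± 0.12, limma adjusted p = 0.0361, against 1.29% of genes called higher). With the block 5 did, namely Bcat2, Bckdha, Bckdhb, Dbt and Hibch, against 5.05%. The treated pair of this comparison departed from the shift between numbers that the block takes as common to all groups. With block and rescaling together (5.99% of genes), Bcat2 (adjusted p = 0.6) and Bckdha (0.317) missed the threshold. Bckdhb, Dbt and Hibch still passed in that fit, and Hibadh was added (0.0175). WT iWAT gave 2 (0.900% of genes), Bcat2 at 0.55 ± 0.11 (adjusted p = 0.0474) and Bckdha at 0.64 ± 0.12 (0.0328), and 3 with the block (4.02%), Hibch being added. Neither Bcat2 nor Bckdha passed there after rescaling (adjusted p = 0.862 and 0.791) or with block and rescaling together (0.105 and 0.0859), and Hibch passed in both fits (0.0348 and 0.000735). K107R iWAT gave Bckdha alone at 0.71 ± 0.12 (limma adjusted p = 0.0104, 1.92% of genes), and Bcat2, Bckdha and Hibch with the block (6.61%). After rescaling Bckdha missed the threshold there (0.521) and with the block added it passed (0.0414), while Bcat2 did not (0.183). The calls in K107R eWAT and in WT iWAT were lost whichever of the 4 libraries was left out (adjusted p from 0.112 to 0.315). That of K107R iWAT was lost without vehicle number 1 (0.0769) or rosiglitazone number 2 (0.103).

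**Figure D2:**
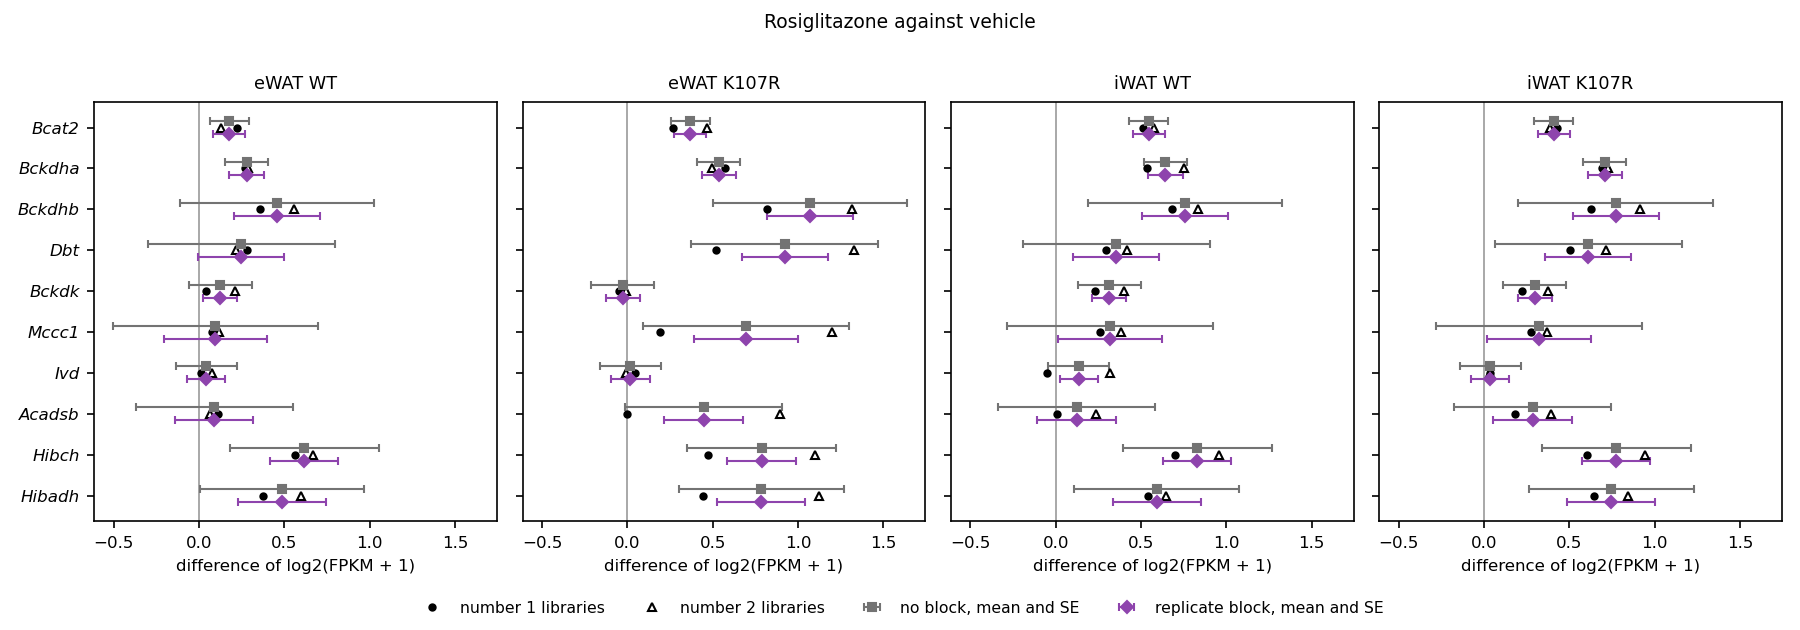
Difference of log2(FPKM + 1) between rosiglitazone and vehicle for each gene (rows) in each depot and genotype (panels). Grey squares and purple diamonds are the limma estimate without and with the replicate block, with bars of 1 SE, and black symbols are the difference within number 1 (circles) and number 2 (open triangles). In all but Bckdk, Ivd and Acadsb, both black symbols lie right of 0 in every panel. Purple bars are shorter than grey ones, most of all in Bckdhb, Dbt, Mccc1, Acadsb, Hibch and Hibadh.

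The response did not pass a test of difference between genotypes or depots for any member. The genotype difference of the drug response ran from -0.15 for Bckdk to 0.67 ± 0.77 for Dbt in eWAT, and from -0.14 for Bcat2 to 0.26 for Dbt in iWAT. In limma 0 of 10 passed, against 2.53% of all genes in eWAT and 0.966% in iWAT, and 0 had an unadjusted p under 0.05. None passed with the block either. For Bckdhb, Dbt, Mccc1, Acadsb, Hibch and Hibadh the unblocked SEs (0.62 to 0.85) leave room for differences as large as the responses themselves. The limit was tighter for Bckdha in iWAT, with a difference of 0.06 ± 0.18 beside an averaged response of 0.68 ± 0.09. For the depot difference of the response 0 of 10 passed, against 2.21% of all genes, and 0 had an unadjusted p under 0.05. With the block the smallest adjusted p were 0.246 for Bckdha (-0.27), 0.264 for Bckdk (-0.26) and 0.367 for Bcat2 (-0.20). The control for K107R eWAT is the pair rich in epididymis RNA, so drug and epididymis RNA cannot be told apart there. Rescaling also moved the median of all genes in that comparison from 0.17 to -0.0033, and with it Bckdha from 0.54 to 0.31, which missed the threshold without the block (adjusted p = 0.918) and with it (0.317). The WT eWAT differences, which do not use that pair, were 0.28 for Bckdha, 0.46 for Bckdhb and 0.62 for Hibch.

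Markers of other cell types differed with treatment beside the members. Of the 6 brown or beige fat markers fixed, 5 were measured, and they summed to 159 and 164 FPKM in iWAT of WT vehicle against 283 and 342 with rosiglitazone. In K107R iWAT the sums were 114 and 125 against 236 and 234, and in K107R eWAT 52.3 and 57.3 against 177 and 188. In WT eWAT they were 43.5 and 47.4 against 62.2 and 65.3. Fibroblast or progenitor markers (4 genes) summed to 1322 and 1182 FPKM in iWAT of WT vehicle against 873 and 910 with rosiglitazone, and to 1334 and 1100 against 841 and 766 in K107R. Vessel markers (4 genes) summed to 391 and 231 FPKM against 275 and 176 in WT iWAT, and to 308 and 163 against 269 and 148 in K107R iWAT. Fat cell markers (9 genes) summed to 9778 and 9356 FPKM against 12282 and 13325 in WT iWAT, and to 11573 and 10211 against 16267 and 16371 in K107R iWAT. Within these inguinal sums Cidec, a lipid droplet protein, read 2418 FPKM in WT vehicle and 4607 with rosiglitazone. Lep and Cfd were lower with the drug, by -0.53 and -0.60 averaged over genotypes in iWAT (limma adjusted p = 0.508 and 0.197; with the block 0.0279 and 0.058). Fabp4, one of the 9, is listed at 0 in all inguinal libraries and in treated K107R eWAT, so sums are not comparable between those groups and the rest. Their part in the members' values was not tested.

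Replicate number divided the members sharply. Bckdhb, Dbt, Acadsb and Hibch were lower in number 2 in all 8 groups, and Mccc1 and Hibadh in 7 of 8. The lowest ratios of number 2 to number 1 were 0.373 for Bckdhb, 0.378 for Mccc1 and 0.408 for Dbt. Bckdk and Ivd, by contrast, were higher in number 2 in all 8 groups (ratios from 1.07 to 1.33 and from 1.05 to 1.44), while Bcat2 stayed between 0.942 and 1.14 and Bckdha between 0.932 and 1.16. In the treated K107R eWAT pair the ratios ran from 0.804 to 1.13 over the 10 members. The division sets what the unblocked test can see: the SE of a single comparison was 0.11 to 0.18 for Bcat2, Bckdha, Bckdk and Ivd and 0.44 to 0.60 for the other 6. Over all genes the log2 ratio fell with transcript length (Pearson r = -0.299 across 12613 genes, which are not independent), while over the 10 members r was 0.081.

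**Figure D3:**
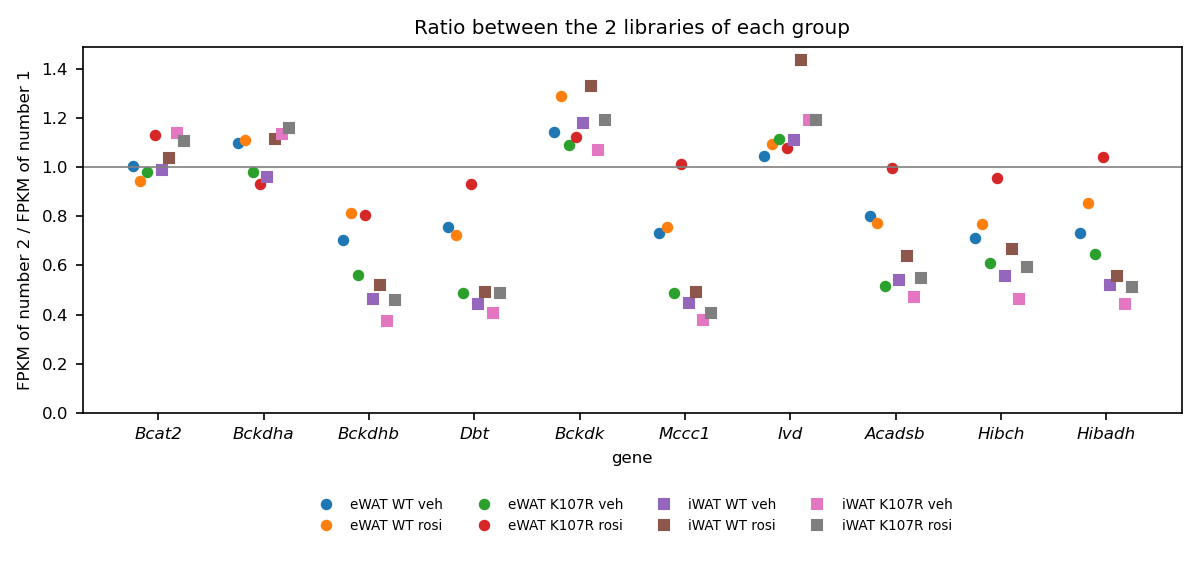
Ratio of FPKM in library number 2 to number 1 of the same group (vertical axis) for each gene (horizontal axis), with circles for the 4 eWAT groups and squares for the 4 iWAT groups. Bcat2, Bckdha, Bckdk and Ivd sit near or above 1 and the other 6 genes mostly below it, inguinal squares lowest. Treated K107R eWAT lies between 0.804 and 1.13 for all 10 genes.

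Ratios within a library show the members against each other without any scaling between libraries. Bckdha over its kinase Bckdk, both per length, was 4.42 and 3.60 in iWAT of WT vehicle and 5.45 and 4.57 with rosiglitazone, and 4.12 and 4.36 against 5.69 and 5.54 in K107R. In eWAT it was 3.08 and 2.96 against 3.62 and 3.12 in WT, and 2.84 and 2.56 against 4.39 and 3.64 in K107R. The ratio was higher with the drug in 8 of 8 same-numbered pairs and higher in iWAT in 8 of 8. Hibch over Acadsb, enzymes of valine and isoleucine that both differ strongly between numbers, averaged 1.44 ± 0.03 (SD, n = 2) in iWAT of WT vehicle and 2.37 ± 0.08 with rosiglitazone. It was 1.57 ± 0.01 against 2.21 ± 0.12 in iWAT of K107R. In eWAT the same ratio was 1.23 ± 0.10 against 1.79 ± 0.005 in WT and 1.58 ± 0.18 against 1.98 ± 0.06 in K107R, so it too was higher with the drug in 8 of 8 pairs. Bckdhb over Dbt, 2 subunits of one complex, stayed between 2.66 and 4.06 in all 16 libraries and was higher with the drug in 7 of 8 pairs. These ratios are described without a test and were not among the planned results. Bckdha over Bckdk and Hibch over Acadsb set a member with a larger drug difference over one with a smaller difference. Their rise with the drug thus restates the differences given above, and no share over other pairs of genes is given.

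**Figure D4:**
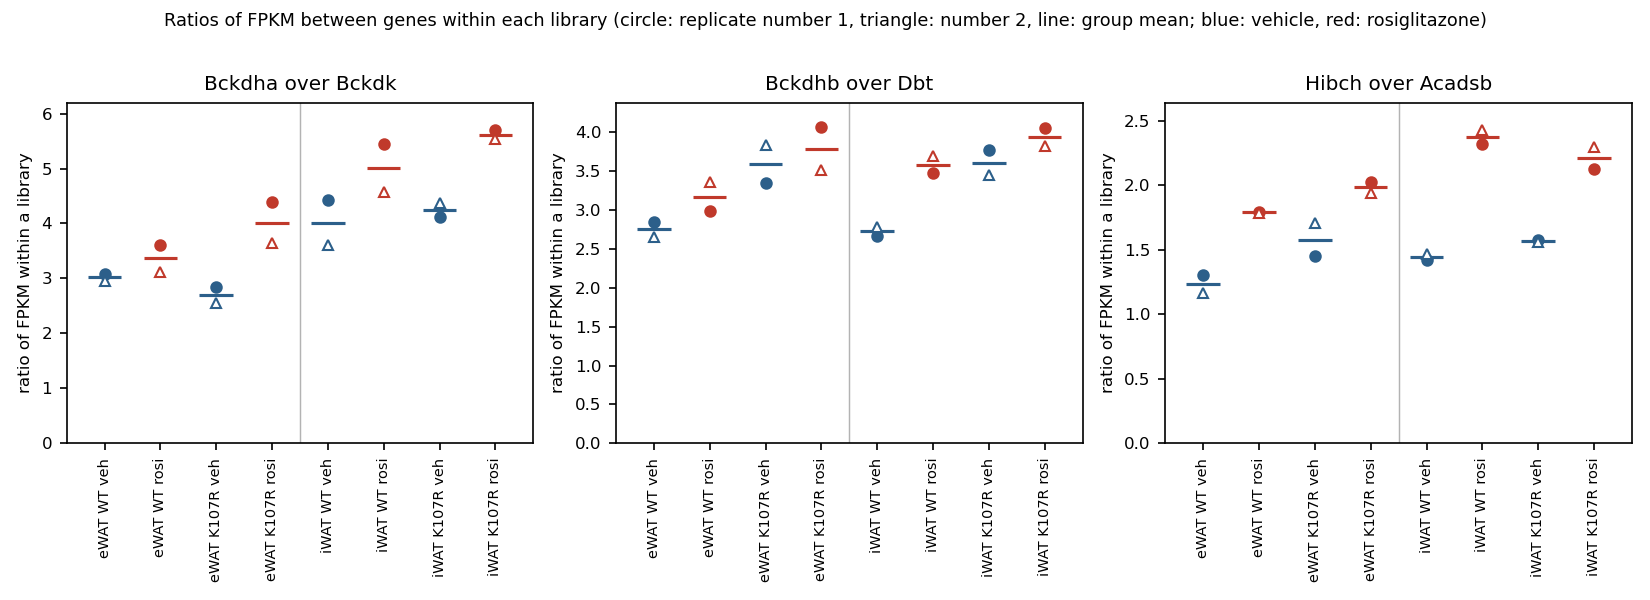
Ratios of FPKM between 2 genes of the same library (vertical axes, from 0) in the 8 groups, with circles for number 1, triangles for number 2 and lines for group means, blue for vehicle and red for rosiglitazone. Bckdha over Bckdk and Hibch over Acadsb are higher in red than in blue for every same-numbered pair, and Bckdhb over Dbt in 7 of 8 pairs.

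Between genotypes, Ivd and Bcat2 stood lower in inguinal fat of K107R, and no member passed limma without the block in any of the 4 comparisons, in which 3.35% (vehicle eWAT), 0.907% (treated eWAT), 0.578% (vehicle iWAT) and 4.13% (treated iWAT) of genes were called in either direction. At an unadjusted p under 0.05 stood 0, 1 (Bckdha), 2 and 2 (Bcat2 and Ivd both times) of 10, in that order. In treated iWAT, Ivd read 53.3 and 63.5 FPKM in K107R against 72.1 and 103.6 in WT, and in vehicle iWAT 52.0 and 61.9 against 74.6 and 82.8. The pairs did not overlap in either treatment, with K107R lower, as in 14.2% of all genes in treated and 10.4% in vehicle iWAT. After rescaling they overlapped in both treatments. K107R number 2 then read 86.8 against 62.2 or more in WT: 63.2 in vehicle number 1, and 85.6 against 62.2 in treated number 1. The treated difference was -0.56 ± 0.18 (limma adjusted p = 0.169) and passed with the block (0.00995). It also passed without WT rosiglitazone number 1, at -0.82 (adjusted p = 0.0477). Bcat2 was lower in K107R in treated iWAT too, at -0.43 ± 0.11 (limma adjusted p = 0.0768; with the block 0.0162). Those 2 of 10 members were the calls of the block fit, in which 6.45% of genes were called lower. After rescaling, neither passed with the block (adjusted p = 0.269 for Bcat2 and 0.184 for Ivd).

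In 2 genes the genotypes lay on opposite sides in the depots, K107R higher in eWAT and lower in iWAT with no overlap in either: Bcat2 and Bckdk in vehicle-treated fat and Bcat2 in treated fat. Opposite sides without overlap, in either orientation, were found in 2.30% of all genes in vehicle-treated and 2.53% in treated fat. After rescaling, the pattern held for neither gene. Bcat2 then read 38.0 and 71.9 in K107R against 50.3 and 73.9 in WT in vehicle-treated iWAT. In treated iWAT it read 51.9 and 90.9 against 73.5 and 105.0. Bckdk read 23.8 and 37.0 in K107R against 19.3 and 26.3 in WT in vehicle-treated eWAT.

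Across inguinal fat, 8 of 10 members were lower in K107R in all 4 same-numbered pairs, against 25.6% of all genes tested. The exceptions were Bckdha (3 of 4) and Bckdhb (2 of 4). In epididymal fat, Acadsb alone was lower in all 4 (17.9% of genes). Its values were 24.6 and 12.7 FPKM against 30.9 and 24.7 in vehicle eWAT and 24.5 and 24.5 against 33.5 and 25.9 in treated eWAT. The vehicle difference was -0.61 ± 0.46 (limma adjusted p = 0.942) and passed with block and rescaling together (-0.45, adjusted p = 0.0233), as did that of Dbt (-0.49, 0.0322), and 2 of 10 were thus called lower there, against 7.82% of genes. That comparison includes the pair rich in epididymis transcripts. Skeletal muscle markers (5 genes) summed to 83.1 and 84.2 FPKM in vehicle K107R iWAT and to at most 28.9 in the other inguinal groups. Lymphocyte markers (7 genes) summed to 148 to 296 in WT iWAT, 92.0 to 125 in vehicle K107R iWAT and 29.8 to 38.4 in treated K107R iWAT. Their part in the inguinal differences was not tested.

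**Figure D5:**
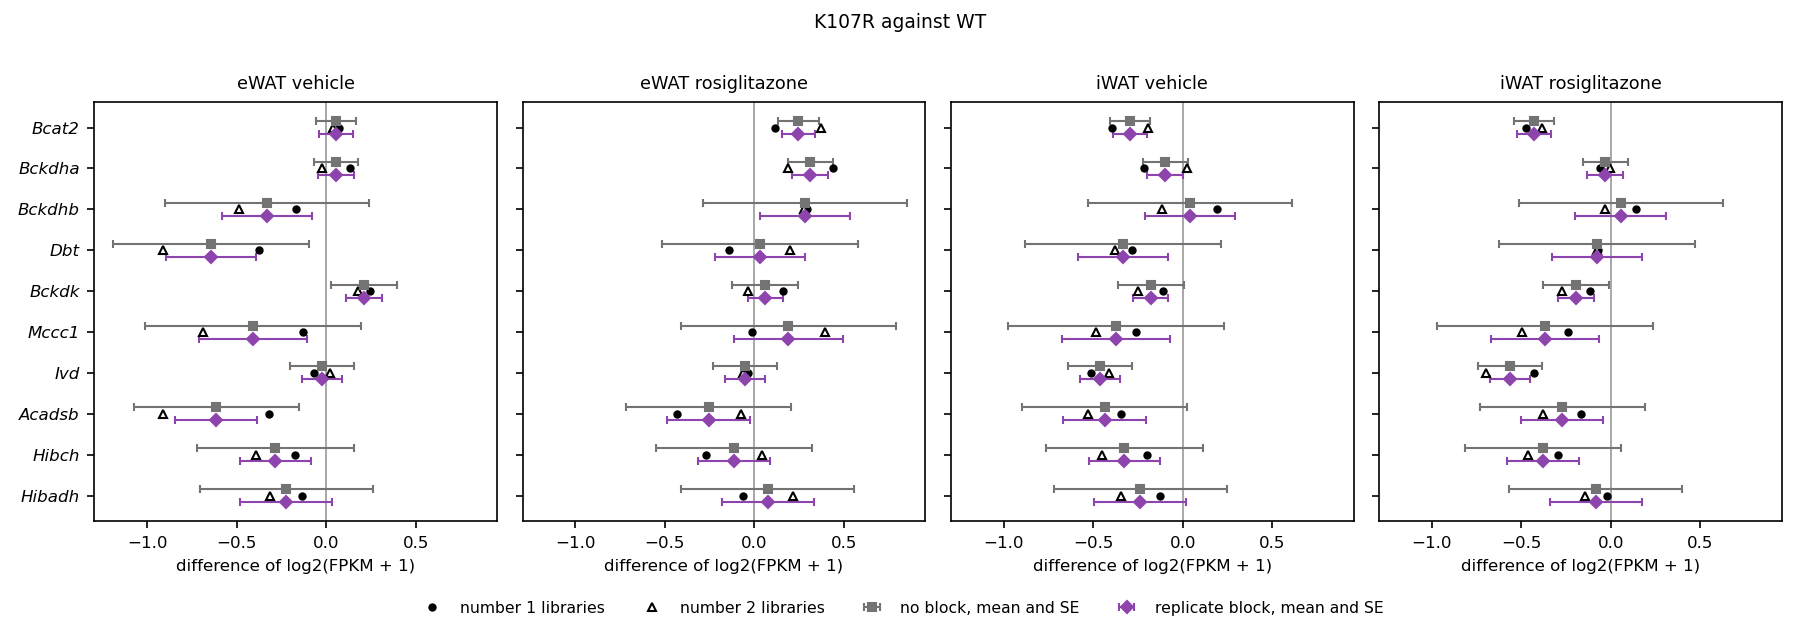
Difference of log2(FPKM + 1) between K107R and WT for each gene (rows) in each depot and treatment (panels), with symbols as for the drug: grey squares without block and purple diamonds with block (bars are 1 SE), black circles for number 1 and open triangles for number 2. In both iWAT panels Bcat2 and Ivd lie left of 0 with both numbers, at -0.43 and -0.56 after rosiglitazone.

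Between depots, 4 of 10 members passed limma without the block, all lower in eWAT: Ivd, Bckdha, Hibch and Bcat2. Ivd separated them completely: 34.0 to 39.4 FPKM over the 8 epididymal libraries (mean 36.7) and 52.0 to 103.6 over the 8 inguinal ones. Such a full separation with eWAT lower was found in 2.59% of all genes tested, and among the members in Ivd alone. After rescaling the separation of Ivd was not complete. Vehicle-treated K107R eWAT number 2 then read 47.6, above number 1 of vehicle-treated (43.9) and treated (45.3) K107R iWAT. Averaged over the 4 groups, eWAT was lower in Ivd by -0.89 ± 0.09 (limma adjusted p = 2.56e-05) and in Bckdha by -0.70 ± 0.06 (1.07e-05). Hibch (-0.69 ± 0.22, adjusted p = 0.0341) and Bcat2 (-0.18 ± 0.06, 0.0342) were lower in eWAT as well. These 4 of 10 compare with 12.5% of all genes called lower, and none of the members was called higher (19.9% of all genes). With the block 9 of 10 were lower, all but Hibadh (adjusted p = 0.134), against 21.0%. The members' median was -0.41, against 0.10 over all genes.

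Leaving out a single library did not end the calls of Ivd or Bckdha in any of 16 fits (adjusted p at most 0.000155). Bcat2 lost its call in 13 of them (adjusted p up to 0.085), all but those without treated K107R eWAT number 2 or without number 1 of either K107R iWAT group. Hibch lost it in 9 (up to 0.0805): those without an inguinal number 1 library, without number 2 of the other 3 epididymal groups, or without either treated K107R eWAT library. After rescaling Bcat2 missed the threshold too (0.191). Bckdha, Ivd, Acadsb and Hibch were lower in eWAT in 8 of 8 pairs of the same group and number, as were 11.3% of all genes. Without both vehicle-treated K107R groups, one of which holds the epididymis transcripts, 4 members passed again, with Ivd at -0.97 and Bckdha at -0.77. Macrophage markers, whose sums are given above, were higher in eWAT, and their part in the depot difference was not tested.

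Ordered by mean over the 8 inguinal libraries, members ran from Bckdha (144.7 FPKM) through Hibadh (103.3), Ivd (70.5), Hibch (69.9), Bcat2 (64.6) and Bckdhb (59.6) to Acadsb (36.6), Mccc1 (34.8), Bckdk (30.5) and Dbt (17.1). The SDs over those 8 libraries of 4 groups, such as 28.8 for Bckdhb and 43.6 for Hibadh, exceed the gaps between Ivd, Hibch, Bcat2 and Bckdhb. In eWAT the order was Bckdha (87.3), Hibadh (82.9), Bcat2 (56.0), Bckdhb (42.3), Hibch (41.2), Ivd (36.7), Bckdk (26.7), Acadsb (25.2), Mccc1 (24.1) and Dbt (12.8). Treated WT iWAT had the highest group mean for every member except Bckdhb, which was highest in treated K107R iWAT. Vehicle-treated K107R eWAT was the lowest group for 7 members, all but Bcat2, Bckdha and Bckdk. The ratio of highest to lowest group mean was 3.47 for Hibch, 2.71 for Bckdhb and 2.12 for Hibadh.

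Other genes of the pathway, 17 in a list of further enzymes and cofactors' enzymes, had positive drug differences in 16 of 17 cases in each depot. The share of all genes with a positive difference is not given here, and their medians were 0.02 in iWAT and 0.10 in eWAT. In iWAT averaged over genotypes, 2 of 17 rose with rosiglitazone (3.11% of all genes were called higher) and none fell. They were Pcca, the alpha subunit of propionyl-CoA carboxylase (0.47 ± 0.10, limma adjusted p = 0.0176), and Hsd17b10, which acts on the isoleucine route (0.37 ± 0.09, 0.0489). With the block 8 of 17 rose, against 9.30% of all genes, and the list's median was 0.33 against 0.02 over all genes. In eWAT 0 of 17 passed limma (4 at an unadjusted p under 0.05, median 0.30 against 0.10 over all genes) and 6 with the block. Of all genes 1.59% were called higher there without the block and 5.52% with it. Between depots 8 of 17 were lower in eWAT and none higher, against 12.5% and 19.9% of all genes. The 3 with the smallest p were Mccc2, the partner subunit of MCCC1 (25.8 FPKM in eWAT and 46.9 in iWAT, -0.82 ± 0.07, limma adjusted p = 4.72e-06), Pccb (-0.63, 7.39e-05) and Pcca (-0.52, 0.000156). Bcat1, the cytosolic transaminase, read 10.4 FPKM in treated K107R iWAT and 4.74 in treated WT iWAT (0.94 ± 0.39, limma adjusted p = 0.416; with the block 0.0316). It was chosen after its values were seen, so the p-values given for it are no support for a genotype difference. In treated eWAT Bcat1 read 7.51 against 2.62 FPKM (1.24 ± 0.39, adjusted p = 0.355; with the block 0.0193).

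The carriers and the regulator Klf15, 7 genes, had 0 of 7 calls with the drug in either depot (limma, with 1 of 7 in eWAT and 2 of 7 in iWAT at an unadjusted p under 0.05). Of all genes 1.59% were called higher and 3.58% lower in eWAT, and 3.11% and 2.25% in iWAT. With the block, Slc25a44, the mitochondrial carrier of branched-chain amino acids, was higher in iWAT (0.43, adjusted p = 0.0328) and in eWAT (0.58, 0.00978). It was named after its values were seen, so these p-values are no support. Slc7a8 and, in K107R, Klf15 went the other way. Slc7a8 averaged 10.8 FPKM in WT vehicle iWAT against 6.21 with rosiglitazone, and 11.5 against 6.93 in K107R. Mean Klf15 in K107R went from 17.7 to 12.6 FPKM in iWAT and from 12.6 to 8.82 in eWAT. In WT it went from 17.5 to 15.8 and from 10.0 to 10.3. Between depots, Slc43a2 (1.22 ± 0.09, limma adjusted p = 3.43e-06) and Slc7a5 (0.42 ± 0.09, 0.0033), transporters of large neutral amino acids in the cell membrane, were higher in eWAT. Klf15, a transcription factor known to drive the pathway in liver and muscle, was lower there (-0.56 ± 0.09, 0.000605), at 10.4 against 15.9 FPKM. The sister complexes that oxidise pyruvate and oxoglutarate, with their kinases, make a list of 10. In iWAT 4 of 10 rose with rosiglitazone, against 3.11% of all genes. The 3 with the smallest p were Dlst (0.69 ± 0.08, limma adjusted p = 0.000653), Pdk2 (0.67 ± 0.09, 0.00115) and Pdhb (0.85 ± 0.12, 0.002). In eWAT 3 of 10 rose, against 1.59% of all genes: Dlst, Pdk2 and Pdk4, the last from 42.7 to 143 FPKM (1.59 ± 0.32, adjusted p = 0.0144). None of the 10 fell in either depot. The list's medians were 0.70 in iWAT and 0.43 in eWAT.

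Genes with the pattern most like the members' shared profile were sought over the 8 group means among 13326 tested genes outside the list. The profile is the mean of the 10 centred log2 values, which ran from -0.54 in vehicle-treated K107R eWAT to 0.58 in treated WT iWAT. The closest were Apmap (Pearson r = 0.989), B430010I23Rik (0.986), Pcca (0.985), Prkag2 (0.984) and Echs1 (0.984), of which Pcca and Echs1 belong to the pathway. Among the members themselves, r over the same 8 means was highest between Bckdhb and Hibadh (0.964) and lowest between Ivd and Hibadh (0.426). These correlations are descriptive, and all points share libraries and the scaling of FPKM within each.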

How the data were processed

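Per the labels' protocols, 16 stranded mRNA libraries of fat were made from 4 ug of total RNA each and sequenced from 1 end over 75 nt. The authors deposited 1 table of FPKM values. The submitters' processing notes name TopHat2 2.0.12, Cufflinks 2.2.1, CASAVA 1.8.2 and the mm10 build. The annotation, the strand setting and the scaling between libraries are not given in the sources used here. FPKM values carry no counts, so the depth is unknown.

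A gene was tested if 2 or more libraries had 1 FPKM or more (13669 of 14023 genes, all 10 members included). limma 3.58.1 in R 4.3.3 fitted log2(FPKM + 1), which understates changes of genes with low values, with 1 mean per group over 16 libraries and a variance trend. Two-sided p-values were adjusted by Benjamini-Hochberg over all tested genes within each of 14 contrasts and 2 more added after the data were seen. An adjusted p under 0.05 counts as a call. The script was tested on simulated data.

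Replicate numbers pair the libraries: for each of 28 pairs of groups, deviations of equal numbers from their group means correlated (r from 0.121 to 0.791, median 0.573). Without treated K107R eWAT the lowest r was 0.501. The block takes 1 shift per gene for all groups, so its SE may be too small where treated K107R eWAT enters. A fit with the number as a block is therefore given where it changes a call. Rescaling divides a library's values by the median of their ratios to geometric means over all libraries.

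The members, the other lists (all 10 members, and up to 3 called genes per other list and contrast with the smallest p, are named) and the likeness measure were chosen with earlier results of these data known. Gene positions are from GENCODE M21 and promoters from RefSeq, both on GRCm38, the assembly that mm10 names. Alternatives were pseudocount 0.1, no filter, rescaling, the block, both together, each depot alone, the depot contrast without vehicle-treated K107R, and leaving out each library.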

Additional observations from a re-analysis of the deposited data

Results flagged for a closer look

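For 2 genes the K107R and WT libraries lay on opposite sides in the 2 depots, without overlap in either, as did 2.30% of all genes in vehicle-treated and 2.53% in treated fat, in either orientation. Bcat2 was 0.055 higher in K107R in vehicle-treated eWAT on the log2(FPKM + 1) scale, and -0.29 in vehicle-treated iWAT. After rosiglitazone the values were 0.25 in eWAT and -0.43 in iWAT. Bckdk was 0.21 in vehicle-treated eWAT and -0.18 in vehicle-treated iWAT. After rescaling, the genotypes overlapped for both genes in both depots of vehicle-treated fat, and for Bcat2 in treated iWAT.

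The depot difference of the genotype effect was then tested in the same libraries. Both genes were picked from those libraries for lying on opposite sides, which set the sign of the difference in advance. The p-values below are therefore no support for it. In treated fat it was 0.68 ± 0.16 for Bcat2 (limma adjusted p = 0.102), 0.0208 with the replicate block and 0.338 with block and rescaling. In vehicle-treated fat it was 0.35 for Bcat2 (adjusted p with the block 0.322) and 0.39 for Bckdk (0.28), neither past the threshold. The vehicle-treated values rest on the K107R eWAT pair rich in epididymis transcripts, whose part was not tested.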

How the results depend on the processing

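None of the 45 member differences called without the block, with it, or with it and rescaling reversed in an alternative. The replicate block gave 5 members called in K107R eWAT for rosiglitazone (in place of 1), 4 in eWAT averaged (1), 3 in K107R iWAT (1), 6 in iWAT averaged (2), 2 for K107R against WT in treated iWAT (0) and 9 between depots (4). The block changed no other count of members by more than 1.5 times. With block and median-ratio rescaling the counts were 1 in WT eWAT (0), 4 in K107R eWAT, 4 in eWAT averaged, 5 in K107R iWAT, 6 in iWAT averaged, 2 for K107R against WT in vehicle eWAT (0) and 10 between depots. In the same order and direction these fits called 1.41%, 5.99%, 5.95%, 8.64%, 11.6%, 7.82% and 33.0% of all genes. Rescaling alone gave 0 in K107R eWAT, 1 in WT iWAT (Hibch) and 8 between depots (20.1% of all genes called lower), and pseudocount 0.1 gave 1 in WT iWAT (2), without Bcat2 (adjusted p = 0.0553). Fitting each depot alone gave 0 for the drug in K107R eWAT, eWAT averaged, WT iWAT, K107R iWAT and iWAT averaged. With the block added it gave 3, 4, 6, 7 and 8 in that order (3.56%, 3.66%, 9.96%, 16% and 19.8% of all genes called higher), and 2 and 3 for genotype in vehicle and treated iWAT (3.95% and 11.6% lower). Leaving out 1 library at a time gave 0 to 0 in K107R eWAT and in WT iWAT, 0 to 1 in eWAT averaged, in K107R iWAT and for genotype in treated iWAT, 2 to 2 in iWAT averaged and 2 to 3 between depots. The cause was not tested, except that fits of 1 depot or of fewer libraries use fewer samples. Rescaling moved the all-gene median of the drug difference in K107R eWAT from 0.17 to -0.0033, and Bckdha there from 0.54 to 0.31. The inguinal averages of Bcat2 and Bckdha missed the threshold with rescaling alone (adjusted p = 0.445 and 0.237) and passed with the block added (0.0278 and 0.0086). Depth is unknown, so its limits cannot be given.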
